A study of Homo sapiens with 8 samples.

Results

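CDKN1A encodes p21, an inhibitor of cyclin-dependent kinases that holds cells in G1, and it is among the best known genes switched on by the transcription factor p53. DNA damage stabilises p53, which binds as a tetramer to response elements made of repeated half-sites. In CDKN1A a stronger distal and a weaker proximal element upstream of the start are textbook examples. The deposited peaks that overlapped chr6:36634000-36666000 on build hg19 by at least 1 bp were taken, a stretch that holds the gene (transcript start near 36646459) and about 10 kb on each side. This gave 22 peaks of 97582 in the lists of 4 chromatin immunoprecipitation sequencing (ChIP-seq) libraries, and they merged into 9 of 63890 sites. The members were defined by position alone.

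All libraries came from 293T cells, an established human embryonic kidney line that carries the SV40 large T antigen, which binds p53. Cells were given doxorubicin, a topoisomerase poison that breaks DNA, at 0.5 µg/ml (Dox) or 20 µL of phosphate-buffered saline as the vehicle (PBS), each for 24 h, and p53 was precipitated with 1 antibody (clone 1C12, Cell Signaling Technology). Each condition had 2 libraries, replicate 1 from passage 3 and replicate 2 from passage 5, which means that number and passage are confounded. The 4 input samples were not analysed here.

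The lists held 46658 and 16642 peaks in Dox replicates 1 and 2, and 11304 and 22978 in PBS replicates 1 and 2. They were called at p under 0.05 per library, so most peaks were weak, and the depth of sequencing behind them is unknown. The replicates' separate culture is not stated beyond the passage, and p-values thus cover only the spread between these samples. Ranks in whole lists are not comparable between lists of such unlike length. Neighbouring genes in RefSeq's order are SRSF3, a splicing factor, before CDKN1A and RAB44, a Rab GTPase, after it. The long noncoding RNA gene PANDAR lies just before CDKN1A and DINOL lies within its span, both known as p53-responsive transcripts. That table uses build GRCh38.p14, so the sites were not placed in genes or exons here and are given by distance from the CDKN1A start.

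The hg19 genome was not used here, so the letters under the peaks are not shown and the response elements were not searched in them. The core promoter of CDKN1A is shown because one of the sites found in every library lies just downstream of the start. It is the 250 bases that end at the base before the start in RefSeq's promoter table, chr6:36678464-36678713 of GRCh38.p14, plus strand. That start was not mapped to hg19, so no peak edge was placed on these letters. Capitals mark the GC box letters GGGCGG, which Sp1 family factors can bind:

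CDKN1A core promoter: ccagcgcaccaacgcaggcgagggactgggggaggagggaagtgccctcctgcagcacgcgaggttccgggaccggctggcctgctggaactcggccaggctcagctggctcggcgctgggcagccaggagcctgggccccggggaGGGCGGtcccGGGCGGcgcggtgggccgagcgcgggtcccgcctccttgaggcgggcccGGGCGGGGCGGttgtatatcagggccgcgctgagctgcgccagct

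The stretch is 76.4% G and C. GGGCGG, searched on both strands, occurred 4 times, all on the plus strand, at −104 to −99, −94 to −89, −45 to −40 and −40 to −35 from the start, the last 2 sharing a base. At least 1 match was found in 42.6% of 35116 promoter stretches of the same length, and at least 4 in 7.63%. The p53 half-site consensus had no exact match in this stretch and at least 1 in 5.57% of the promoters. A missing match says only that the exact consensus is not among these 250 bases.

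The strongest site lay upstream of the start and was found with and without doxorubicin. Its peaks spanned chr6:36643749-36644624 on hg19, with a mean summit at −2.24 kb from the start, and it is called the −2.2 kb site. This is about where the distal p53 element of CDKN1A is known to be. The authors' fold enrichment at its summit was 11.9 and 13.3 in Dox replicates 1 and 2, and 11.9 and 13.2 in PBS replicates 1 and 2. The deposited −log10 p was 30.3 and 35.4 in the Dox libraries, and 22.8 and 35.4 in the PBS libraries. The folds of the conditions overlapped. Each is on a scale set by its own library and local background, so no difference between libraries was drawn from them.

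The −2.2 kb peaks were also wide and closely aligned. Their summits fell at −2275 and −2219 bp in the Dox libraries and at −2252 and −2228 bp in the PBS libraries, a spread of 56 bp over all 4. The Dox peaks were 756 and 702 bp wide and the PBS peaks 526 and 628 bp, against list medians of 281 to 288 bp. Every pair of libraries shared at least 82.9% of the shorter peak there.

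Within its own list the −2.2 kb peak ranked 31 and 13 by fold in Dox replicates 1 and 2, and 14 and 30 in PBS replicates 1 and 2. By −log10 p the ranks were 24 and 16 in the Dox lists, and 23 and 31 in the PBS lists. On chromosome 6 it was, by fold, the highest peak in Dox replicate 2 and PBS replicate 1, and ranked 2 in Dox replicate 1 and PBS replicate 2. The 30 and 12 peaks above it in the Dox lists and the 13 and 29 above it in the PBS lists all lay in sites found in the 4 libraries. Its fold was 2.54 and 2.32 times that of the next CDKN1A peak in the Dox lists, and 3.64 and 2.96 times in the PBS lists. The site thus stood far above its neighbours in each library, and the rest of the locus held peaks of at most 5.75-fold.

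**Figure D1:**
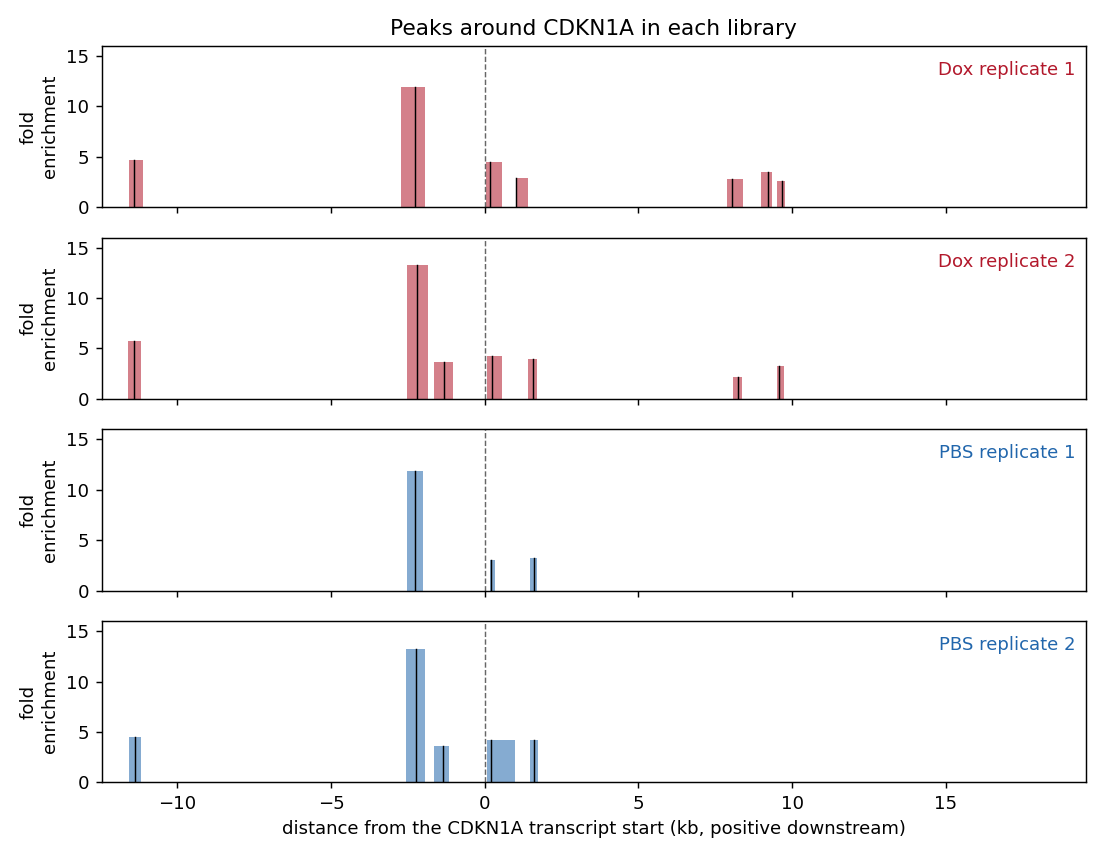
Peaks in the CDKN1A window, 1 panel per library. The horizontal axis is distance from the transcript start in kb (dashed line at 0), each box spans 1 peak, its height is the authors' fold enrichment and the black line marks the summit. The −2.2 kb box is the tallest in all 4 panels, at 11.9-fold to 13.3-fold, and the boxes between +8.1 and +9.6 kb stand in the Dox panels (red) and not in the PBS panels (blue).

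**Figure D2:**
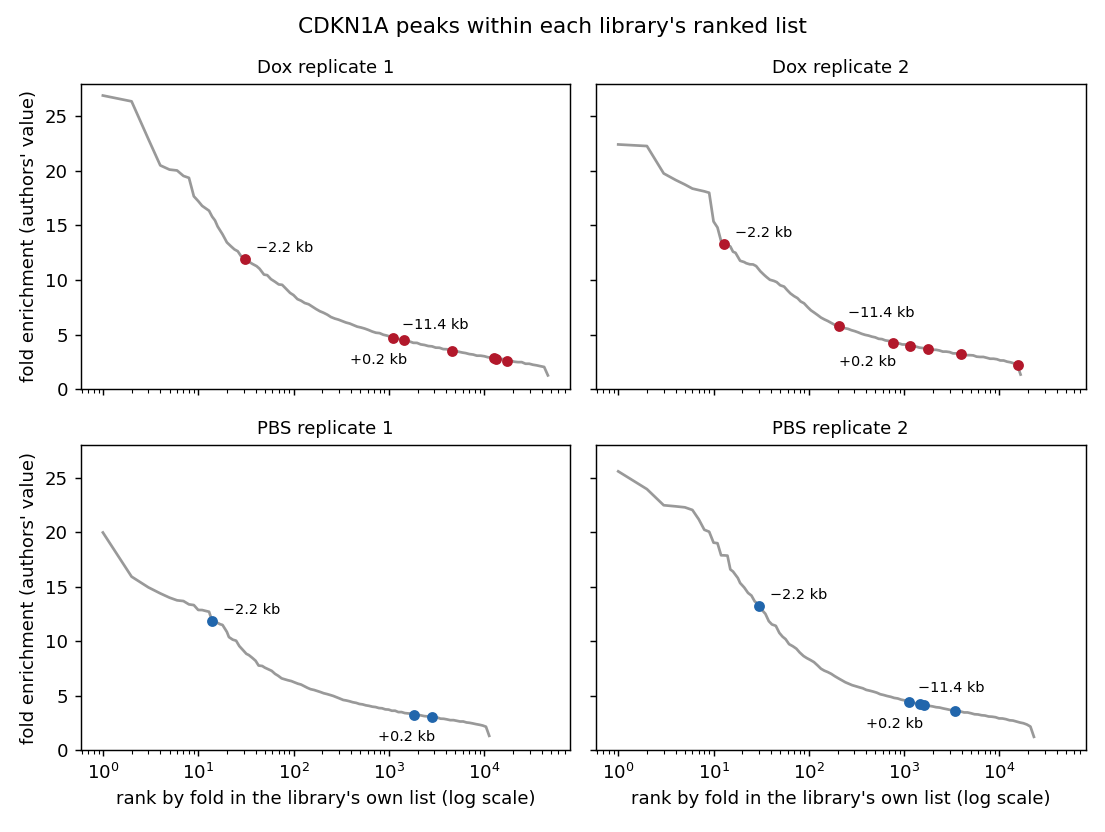
Fold enrichment against rank in the library's own list (log scale), with the whole list as a grey line and the CDKN1A peaks as points. The −2.2 kb peak lies on the steep head of every list, at ranks 13 to 31, and all other CDKN1A peaks lie on the flat part, at ranks of 207 or beyond.

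Ranks can be set side by side among the 3840 sites that held a peak in all 4 libraries, which were 6.01% of all merged sites. The CDKN1A window had 2 of them among its 9 sites (22.2%), the −2.2 kb site and a site at +0.2 kb. Among the 3840, the −2.2 kb site ranked 31 and 13 by fold in Dox replicates 1 and 2, and 14 and 30 in PBS replicates 1 and 2. The mean rank in Dox was 22.0 ± 12.7, and that in PBS was 22.0 ± 11.3 (SD, 2 libraries each), a difference of 0. The two-sided exact permutation p was 1.0, and 2 libraries against 2 allow no p below 0.333. Within replicate number 1, from passage 3, the rank was 17 places lower down the list in Dox than in PBS, and within number 2, from passage 5, 17 places higher up, each from 1 library per condition.

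The +0.2 kb site spanned chr6:36646492-36647455, just downstream of the start, and was weaker. Its fold was 4.48 and 4.25 in the Dox libraries, and 3.01 and 4.20 in the PBS libraries. The −log10 p was 5.15 and 4.97 in the Dox libraries, and 2.73 and 5.13 in the PBS libraries. PBS replicate 1 stood apart in width, with a peak of 188 bp, the shortest width in its list. The peak was 531 and 502 bp wide in the Dox libraries and 925 bp in PBS replicate 2. The summits nevertheless fell within 79 bp, at +163 and +242 bp in the Dox libraries and +213 and +197 bp in the PBS libraries.

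Among the 3840 shared sites the +0.2 kb site ranked 1048 and 622 in the Dox libraries, and 1787 and 1046 in the PBS libraries. The mean rank in Dox was 835 ± 301, and that in PBS was 1416.5 ± 524 (SD, 2 libraries each; two-sided exact permutation p = 0.667, and 0.889 after Benjamini-Hochberg adjustment over the 4 such comparisons made). Across replicate numbers the conditions overlapped, with a rank of 1048 in Dox replicate 1 and 1046 in PBS replicate 2. Within each number the site ranked higher up in Dox, with Dox minus PBS of -739 places within number 1 and -424 within number 2 (exact sign-flip permutation p = 0.5 with number as a block, the smallest possible). This comparison was added after the data were seen.

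**Figure D3:**
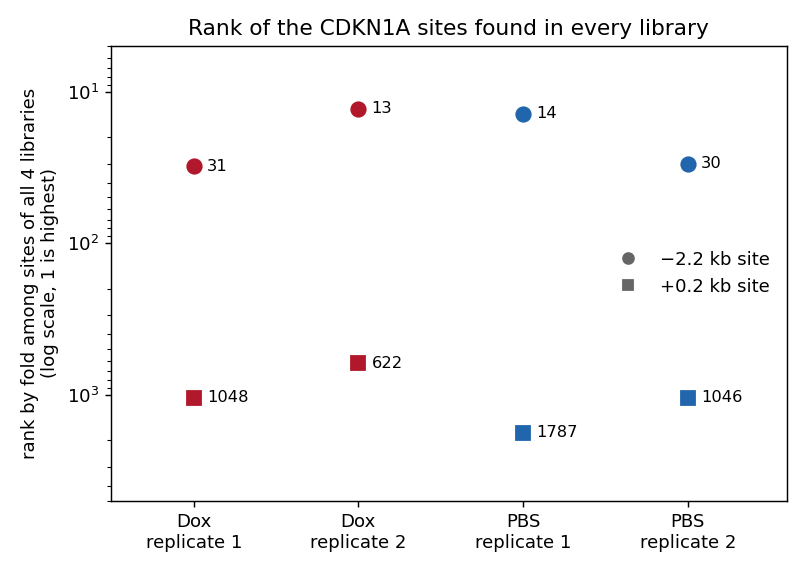
Rank by fold (log scale, 1 at the top) of the −2.2 kb site (circles) and the +0.2 kb site (squares) among the 3840 sites of all 4 libraries, with 1 point per library in red for Dox and blue for PBS. The −2.2 kb site ranks 31, 13, 14 and 30 from left to right, with no gap between the conditions, and the +0.2 kb site ranks 622 to 1787.

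Farther upstream, a site at −11.4 kb (chr6:36634871-36635337) was found in 3 libraries, both from Dox and PBS replicate 2. Its fold was 4.69 and 5.75 in Dox replicates 1 and 2, and 4.47 in PBS replicate 2, with −log10 p of 7.53 and 8.12 in the Dox libraries and 5.42 in PBS replicate 2. PBS replicate 1, the shortest list, had no peak there. The summits of the Dox libraries fell on the same base, −11403 bp, and that of PBS replicate 2 was 31 bp away. After the −2.2 kb site this was the site of the CDKN1A window with the smallest p in the 3 libraries that held it, and it ranked 1113 and 207 by fold in the Dox lists and 1116 in the list of PBS replicate 2. An 8411 bp stretch with no peak in any library separated it from the −2.2 kb site.

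Between the −2.2 kb site and the start, a site at −1.3 kb (chr6:36644795-36645435) was found in the libraries of replicate number 2 alone. It had 3.69-fold enrichment in Dox replicate 2 and 3.63-fold in PBS replicate 2, with −log10 p of 4.37 and 3.68 and summits at −1320 and −1357 bp. The weaker proximal p53 element of CDKN1A is known from about this distance. Its edge lay 170 bp from the −2.2 kb site, and neither replicate 1 library had a peak in its place. From −1024 bp to the first base of the +0.2 kb site, at +33 bp, no library had a peak.

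Within 2 kb after the start, PBS replicates 1 and 2 and Dox replicate 2 had a site at +1.6 kb (chr6:36647869-36648189). The fold was 3.93 in Dox replicate 2, and 3.25 and 4.18 in PBS replicates 1 and 2, with summits within 42 bp. Dox replicate 1 had instead a peak of 2.89-fold on chr6:36647469-36647865, the +1.0 kb site, which ended 3 bp before the +1.6 kb site. Its summit lay at +1016 bp, near the left end of the peak, against +1554 to +1596 bp at the +1.6 kb site. The count of libraries at this pair of sites therefore turns on 3 bp: joined, they would form a single stretch with a peak in all 4 libraries. Joining all peaks up to 100 bp apart also drew in the +0.2 kb site, 13 bp away, and left 7 sites.

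The far downstream part of the window held 3 sites, with peaks in the Dox libraries only and folds of 2.21 to 3.51. The +8.1 kb site (chr6:36654344-36654861) was enriched 2.77-fold in Dox replicate 1 and 2.21-fold in Dox replicate 2, with −log10 p of 2.83 and 1.61, and its summits were 193 bp apart. The +9.6 kb site (chr6:36655962-36656234) had 2.62-fold and 3.25-fold, with −log10 p of 2.03 and 3.55, and summits 117 bp apart. One more site at +9.2 kb (chr6:36655457-36655794) was found in Dox replicate 1 alone, with 3.51-fold enrichment and a −log10 p of 3.71. By fold, the +8.1 kb peaks ranked 13230 of 46658 in Dox replicate 1 and 15451 of 16642 in Dox replicate 2, and the +9.6 kb peaks 17385 and 3922 in the same lists. The +9.2 kb peak ranked higher in Dox replicate 1, at 4551, above the +1.0 kb peak of that library at 12542.

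The number of peaks in the CDKN1A window was 7 and 7 in Dox replicates 1 and 2, and 3 and 5 in PBS replicates 1 and 2. The mean in Dox was 7.0 ± 0, and that in PBS was 4.0 ± 1.41 (SD, 2 libraries each), higher in both Dox libraries than in either PBS library, by 4 peaks within number 1 and 2 within number 2. The two-sided exact permutation p was 0.333, the smallest that 2 libraries against 2 allow, and 0.666 after adjustment over the 4 comparisons. The peaks covered 3272 and 3030 bp of the window in the Dox libraries, and 945 and 2689 bp in the PBS libraries. The exact permutation p was 0.333, and 0.666 after adjustment over the 4 comparisons. The comparison of covered length was not planned in advance. With the 11304 smallest p of each list, so that all lists had the length of the shortest, 4 and 6 CDKN1A peaks were kept in the Dox libraries and 3 and 5 in the PBS libraries. The difference of the means then was 1.0 peak (exact permutation p = 0.667) in place of 3.0, and the conditions overlapped.

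The sites exclusive to doxorubicin were few and depended on the list length. Of the 9 sites, 2 (22.2%) were held by both Dox lists and by neither PBS list, those at +8.1 and +9.6 kb, against 3.11% of all merged sites. Conversely, 0 were held by both PBS lists and by neither Dox list, against 0.928% of all merged sites. At equal list length the Dox-exclusive count was 0: neither Dox library kept the +8.1 kb peak, and Dox replicate 2 alone kept the +9.6 kb peak. The +8.1 kb peak of Dox replicate 1 had the very −log10 p at which that list was cut, 2.83, where ties were broken by fold. Without Dox replicate 2 the count was 4, since the remaining Dox library then stood for the condition. All 9 sites had a peak in a Dox library and 5 had one in a PBS library. Shares of all merged sites were not computed for these 9 and 5, so whether they are unusual is not known. Nor were such shares computed at equal list length or without Dox replicate 2. No test was made on these counts.

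At q of at most 0.05, 6 of the 22 peaks passed, and they belonged to 2 sites. The −2.2 kb peak passed in all 4 libraries, with −log10 q of 24.5 and 29.4 in the Dox libraries and 16.9 and 29.7 in the PBS libraries. The −11.4 kb peak passed in Dox replicates 1 and 2, at −log10 q of 3.18 and 3.45. That of PBS replicate 2 missed by little, at 1.30029 against 1.30103. Thus 2 of 7 peaks passed in each Dox library, where 3.65% and 4.84% of the lists of replicates 1 and 2 did. In the PBS libraries 1 of 3 and 1 of 5 passed, where 2.56% and 5.84% of the lists of replicates 1 and 2 did. The −11.4 kb site was thus exclusive to Dox at this threshold, although PBS replicate 2 held a peak there. The share of all merged sites exclusive to Dox at this threshold was not computed.

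The authors' tables of peaks matched between replicates held 5 Dox pairs and 3 PBS pairs at CDKN1A. The irreproducible discovery rate (IDR) scores each pair, and a low value means that both replicates rank the pair high. At the −2.2 kb site it was 1.03e-06 in Dox and 1.25e-05 in PBS, ranks 16 of 8784 Dox pairs and 22 of 6244 PBS pairs. At the +0.2 kb site it was 0.0276 in Dox and 0.256 in PBS, where the pair includes the narrow peak of PBS replicate 1. The −11.4 kb site had a Dox pair at 7.88e-05 and no PBS pair, as PBS replicate 1 had no peak. The +1.6 kb site had a PBS pair at 0.206 and no Dox pair, as the peaks of the Dox libraries lay 3 bp apart. The pairs at +8.1 and +9.6 kb, in Dox, had an IDR of 0.497 and 0.399, at ranks 7213 and 5994 of the table. With an IDR of at most 0.05 there were 3 of 5 Dox pairs and 1 of 3 PBS pairs, where 27.5% of all Dox and 15.0% of all PBS pairs passed. IDR values come from 1 table per condition, so the conditions were not tested against each other.

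**Figure D4:**
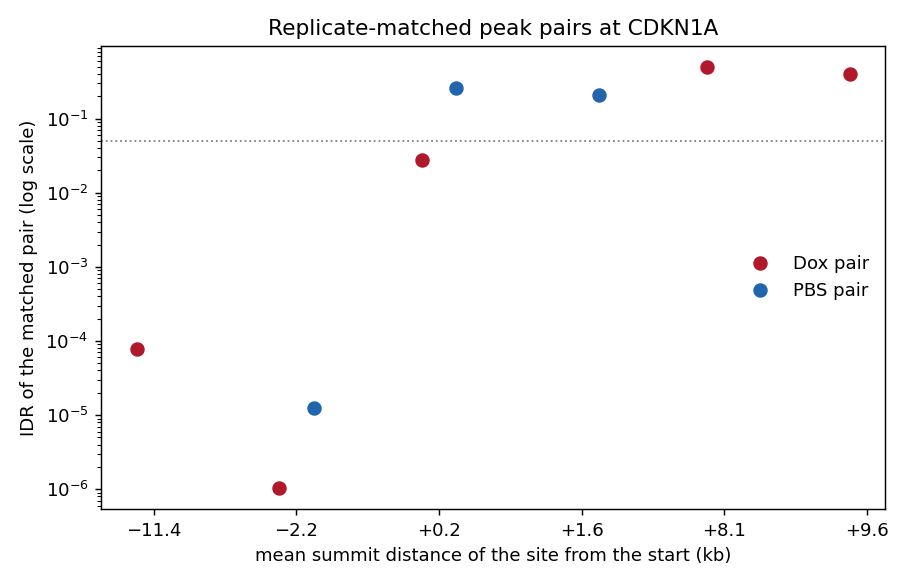
IDR of each replicate-matched peak pair at CDKN1A (log scale) by site, in red for Dox and blue for PBS, with the dotted line at 0.05. The −2.2 kb site has the lowest value in both conditions, 1.03e-06 in Dox and 1.25e-05 in PBS, and the Dox pairs at +8.1 and +9.6 kb lie above the line.

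Few peaks lay close to the window on either side. The nearest peak before the window lay 4.64 kb from its edge in Dox replicate 1, with 2.63-fold enrichment and a −log10 p of 2.44. In Dox replicate 2 the nearest lay 42.1 kb away, and in PBS replicates 1 and 2 it lay 54.4 and 50.6 kb away. After the window the nearest peak was 84.5 and 84.6 kb away in the Dox libraries, and 176.0 and 61.0 kb away in the PBS libraries. Widening the window by 10 kb on each side thus added that 1 peak of Dox replicate 1. How these distances compare with the usual spacing of peaks was not examined. For scale, the genome was cut into blocks of 32000 bp, of which 27481 held a peak in some library. At least as many peaks as at CDKN1A were found in 3.23% and 0.458% of these blocks for Dox replicates 1 and 2, and in 2.69% and 1.97% for PBS replicates 1 and 2. Blocks have fixed borders and the window was placed on the gene, so these shares describe the density and are no test.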

How the data were processed

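The submitters' processing notes name BWA, MACS2 and hg19. Versions, read extension and control use: not given in the sources used here. Per the peak names in the deposited lists, each ChIP library was called separately at p under 0.05. The authors' fold enrichment is a ratio at the summit over local background, used within 1 list. The deposited −log10 values are of p and q per peak, and the last column is the summit as a chromosome position, with 0-based or 1-based counting not stated, so summits are exact to 1 bp. Per the file headers, the pair tables give an IDR as a fraction.

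Starts were converted to 1-based positions. Peaks of the 4 lists sharing at least 1 bp were merged into sites, and the strongest site was the one with the highest mean fold percentile. Rank is 1 plus the number of higher values. Equal-length lists were taken by p, ties by fold. Means were compared with two-sided exact permutation tests over 2 libraries per condition. Merging at 1 bp was checked on simulated sites spaced too far apart to touch, so narrow gaps between sites were not covered. The tests were checked on small worked examples. The members, sites and tests were chosen with earlier results of these data known. The list of other p53 targets planned for comparison was not used, since no hg19 annotation was used here. Software was Python 3.11.15 with scipy 1.17.1, pandas 2.3.3, numpy 2.4.6 and, for plots, matplotlib 3.10.9.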

Additional observations from a re-analysis of the deposited data

Results flagged for a closer look

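The rank of the −2.2 kb CDKN1A site among the 3840 sites of all 4 libraries moved in opposite directions in the replicate numbers. Dox minus PBS was 17 places within number 1, from passage 3 (rank 31 in Dox and 14 in PBS), and -17 places within number 2, from passage 5 (rank 13 in Dox and 30 in PBS). A higher rank number is a lower fold only within the same library, so these places are not differences in fold. The fold at the site was 11.9 in both libraries of number 1. In number 2 it was 13.3 in Dox and 13.2 in PBS. No test of that opposition was made, as each value rests on 1 library per condition.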

How the results depend on the processing

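With q of at most 0.05 the CDKN1A window held 2 sites, 1 of them in all 4 libraries and 1 exclusive to the Dox pair, against 9, 2 and 2 with all peaks; at a −log10 q of at least 1.3, a value chosen after the data were seen, these counts were 2, 1 and 0. The Dox-exclusive count was 0 at equal list length and 1 with summits within 150 bp. Shares of all merged sites were not computed under these settings, nor at the q thresholds. Pairs with an IDR of at most 0.05 numbered 3 for Dox and 1 for PBS, against 5 and 3. These follow from fewer peaks or stricter joining. Leaving out each library in turn gave 7 to 9 sites, 2 to 3 in all remaining libraries, 2 to 4 exclusive to Dox, and a difference of 2 to 4 peaks between Dox and PBS. The rank difference of the −2.2 kb site was then -9 to 9 places, and -7 when ranked by p or q. Replicate number coincides with passage, and no source says that libraries of a number shared a culture. With the replicate block the peak difference was 3.0 (exact sign-flip permutation p = 0.5, the smallest possible) and the rank difference 0, with no call changed. The peak difference was 1.0 at q of at most 0.05 and 0.5 at a −log10 q of at least 1.3. No p here could pass 0.05, so kept directions say little. By p or q, the −2.2 kb peak ranked 23 in the list of PBS replicate 1, against 14 by fold. Of 64 alternative values, 11 were counts that moved by over 1.5 times, and the peak difference stayed above 0 in all its alternatives. The main rank difference was 0, so none of its alternatives could reverse its sign. The replicate block gives the same mean differences by design, so its unchanged values say nothing about stability.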
